A study of Mus musculus with 8 samples.

Results

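The genes described here are 4 cathepsins, Ctsb, Ctsd, Ctsh and Ctsl, and 2 cystatins, Cst3 and Cstb. They were chosen by name from the 15995 gene symbols of the deposited expression table, and all 6 were found there. RNA had been sequenced from epidermis peeled off the skin of newborn C57BL/6J mice, in 4 libraries from ZFP750-/- pups and 4 from wild-type (WT) pups. The Zfp750 product is a zinc finger transcription factor found in differentiating keratinocytes, and the comparison asks what its loss does to skin lipid metabolism and the skin barrier. The labels describe a knockout of the whole animal and name no promoter, Cre driver or treatment, and they do not say which part of the gene was removed or whether any pups were pooled. Nothing in the labels states that the libraries came from separate litters, so p-values measure the spread between these libraries.

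Cathepsins are proteases, most of them active in the acid interior of the lysosome. Ctsb, Ctsh and Ctsl belong to the papain-like cysteine proteases, and Ctsd is an aspartic protease. Cystatins bind the active site cleft of papain-like proteases and block it: cystatin C (Cst3) is secreted, and cystatin B (Cstb) stays in the cytosol and nucleus. In skin, cathepsin D is known to act on transglutaminase and cathepsin L to limit keratinocyte growth and to be needed for the hair cycle, both from work in mice.

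Levels are FPKM, fragments per kilobase of transcript scaled to the number of mapped fragments, so they can be set side by side between genes. Summed FPKM was 510965 to 577300 in the knockouts and 483416 to 561144 in the wild types. Zfp750 stood at 1.53 to 2.68 FPKM in the knockouts and 81.6 to 119 FPKM in the wild types, as the labels have it. The keratinocyte markers Krt5, Krt14, Lor, Ivl, Dsp and Trp63 were present in every library. Endothelial markers (3) summed to 0.149 to 0.453 FPKM in the knockouts and 0.214 to 0.732 FPKM in the wild types. Fibroblast markers (6) summed to 22.6 to 188 FPKM in the knockouts, highest in knockout 2, and 31.0 to 90.0 FPKM in the wild types. Melanocyte markers (5) summed to 16.2 to 88.2 FPKM in the knockouts and 13.0 to 79.6 FPKM in the wild types. No tested fibroblast or melanocyte marker passed, and the part of these cells in the values below was not tested. Of these 6 keratinocyte markers, 2 rose: Ivl, a cornified envelope protein, to 543 ± 132 FPKM in the knockouts, against 195 ± 29.98 FPKM in the wild types (SD, n = 4 each; log2 1.46, limma adjusted p = 8.44e-04), and Krt14, a basal layer keratin, to 2351 ± 945 FPKM in the knockouts, against 875 ± 423 FPKM in the wild types (SD, n = 4 each; log2 1.46, limma adjusted p = 0.0464). The other 4 did not pass, and the part of a shift between keratinocyte layers in the values below was not tested. Krt1 and Krt10 were listed at 0 in several libraries and were not tested. In whole epidermis, fewer cells of a type and less RNA per cell cannot be told apart.

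The start regions of Cst3, Ctsl and Ctsd are shown because Ctsl and Cst3 carry the main differences and Ctsd is an abundant gene that did not pass the test. Each line runs 5′ to 3′ from 250 bases before to 50 bases after the start in RefSeq (GRCm38.p6), all on the minus strand. The windows are chr2:148875463-148875762 for Cst3, chr13:64370471-64370770 for Ctsl and chr7:142387778-142388077 for Ctsd. Capitals mark CACGTG, the E-box core of the element read by the lysosomal regulator TFEB, or GGGCGG, the GC box, on either strand.
Cst3: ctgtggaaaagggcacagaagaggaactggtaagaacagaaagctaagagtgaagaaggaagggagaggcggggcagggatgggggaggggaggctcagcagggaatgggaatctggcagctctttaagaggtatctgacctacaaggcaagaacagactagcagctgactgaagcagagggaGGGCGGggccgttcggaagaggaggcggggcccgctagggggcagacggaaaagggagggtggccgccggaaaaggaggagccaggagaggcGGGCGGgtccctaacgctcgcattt
Ctsl: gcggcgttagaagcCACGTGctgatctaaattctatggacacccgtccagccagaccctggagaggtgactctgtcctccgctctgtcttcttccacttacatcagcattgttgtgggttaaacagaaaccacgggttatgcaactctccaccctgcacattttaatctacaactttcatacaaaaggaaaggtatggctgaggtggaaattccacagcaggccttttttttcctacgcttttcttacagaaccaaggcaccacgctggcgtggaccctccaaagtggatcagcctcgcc
Ctsd: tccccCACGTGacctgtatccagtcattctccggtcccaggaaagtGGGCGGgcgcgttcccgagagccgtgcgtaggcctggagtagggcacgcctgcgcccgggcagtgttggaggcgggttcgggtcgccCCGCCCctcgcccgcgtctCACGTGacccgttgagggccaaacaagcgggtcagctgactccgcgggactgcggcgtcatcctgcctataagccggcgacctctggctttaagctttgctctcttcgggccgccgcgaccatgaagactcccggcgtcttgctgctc

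The Ctsd window holds CACGTG 98 and 245 bases before the start and 2 GC boxes. The Ctsl window holds 1 CACGTG, 236 bases before the start, and no GC box, and the Cst3 window 2 GC boxes and no CACGTG. The string CACGTG is in 7.15% and the GC box in 35.7% of all 32851 such windows. The bases that flank CACGTG in the TFEB element were not searched. CCNNAGGC, the motif known for human ZNF750, was searched on both strands as well and is in none of the 3 windows and in 24.1% of all. The motifs searched do not overlap in these windows, and a match is a string of letters and not a shown binding site. In the GENCODE M21 annotation the Ctsl start used here is the first base of a later exon in 2 Ctsl transcripts, and the outermost Ctsl start lies 370 bases further upstream, so most of that window can be intron. The Cst3 and Ctsd starts lie 180 and 211 bases inside the outermost GENCODE starts. No start region was matched for Ctsb, Ctsh or Cstb.

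Ctsl rose to 3.47 times its wild-type level in the knockouts. It lies on chromosome 13 from 64359337 to 64370890 (GRCm38, minus strand, up to 9 exons in a transcript). It had 394, 524, 453 and 444 FPKM in knockout libraries 1 to 4, against 108, 101, 192 and 121 FPKM in wild-type libraries 1 to 4. Each knockout library was above each wild-type library, and wild type 3 was the highest of its group. The means were 454 ± 53.6 FPKM in the knockouts and 131 ± 41.99 FPKM in the wild types (SD, n = 4 each). The log2 change was 1.83 ± 0.20 (SE; limma adjusted p = 3.02e-04), and the interval of the fold ran from 2.61 to 4.83 (95%, on log2(FPKM + 1)). Ctsl ranked 183 by p among the 11395 genes tested. With log2 Xist, a mark of female cells, as a covariate, its log2 change was 1.55 (limma adjusted p = 0.00148). Xist was high in knockouts 1 to 3 but, of the wild types, in wild type 3 alone. An antisense gene and a processed pseudogene each share part of an exon with Ctsl in the annotation. The kit marks strand, but no source used here says whether counting used it.

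The other 2 cysteine cathepsins did not pass. Ctsh, an aminopeptidase (chromosome 9, 90054152 to 90076089, GRCm38, plus strand), had 64.5, 84.9, 71.7 and 74.2 FPKM in knockout libraries 1 to 4, against 63.8, 54.5, 58.3 and 54.2 FPKM in wild-type libraries 1 to 4. The groups did not overlap, with knockout 1 just above wild type 1. The mean was 73.8 ± 8.44 FPKM in the knockouts and 57.7 ± 4.51 FPKM in the wild types (SD, n = 4 each). The log2 change of 0.35 ± 0.11 missed the threshold in limma (adjusted p = 0.0721), with a two-sided exact permutation p of 0.0286, the smallest that 4 against 4 allows. Its interval of the fold ran from 1.06 to 1.52.

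Ctsb, which also trims pairs of residues from protein ends (chromosome 14, 63122462 to 63145923, GRCm38, plus strand), was the lowest of the 6 genes in both genotypes. It had 33.9, 41.2, 42.6 and 34.5 FPKM in knockout libraries 1 to 4, against 44.9, 42.4, 57.2 and 47.2 FPKM in wild-type libraries 1 to 4. Only knockout 3 reached into the wild-type range, just above wild type 2. The log2 difference was -0.32 ± 0.13 (SE; limma adjusted p = 0.133), with a fold between 0.652 and 0.978 (95%). Fdft1 on the opposite strand touches 1 exon of Ctsb.

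Ctsd, the aspartic protease (chromosome 7, 142375911 to 142388038, GRCm38, minus strand), was among the most abundant of the 6 in both genotypes. It had 389, 483, 443 and 488 FPKM in knockout libraries 1 to 4, against 511, 464, 532 and 430 FPKM in wild-type libraries 1 to 4. The groups overlapped over most of their range. The log2 difference was -0.10 ± 0.12 (SE; limma adjusted p = 0.635), and its interval leaves room for folds of 0.767 to 1.13. A model gene without a row in the table, Gm49369, shares 8 Ctsd exons on the same strand, so reads there could have been split.

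Cst3, the secreted inhibitor, fell by 34.7% in the knockouts. It lies on chromosome 2 from 148871722 to 148875692 (GRCm38, minus strand, 3 exons). It had 277, 352, 359 and 394 FPKM in knockout libraries 1 to 4, against 586, 571, 464 and 495 FPKM in wild-type libraries 1 to 4. The highest knockout, number 4, stayed below the lowest wild type, number 3. The means were 345 ± 49.3 FPKM in the knockouts and 529 ± 58.97 FPKM in the wild types (SD, n = 4 each), and the log2 change was -0.62 ± 0.14 (SE; limma adjusted p = 0.0170). The call was lost without wild type 1 (adjusted p = 0.0583) or wild type 2 (adjusted p = 0.0548). It was also lost with log2 Xist as a covariate (log2 change -0.46, adjusted p = 0.111): Xist, a mark of female cells, stood at 126, 84.6, 150.4 and 1.84 FPKM in knockout libraries 1 to 4, against 0.0223, 0.00870, 118 and 0.00825 FPKM in wild-type libraries 1 to 4.

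Cstb, the intracellular inhibitor (chromosome 10, 78425669 to 78427622, GRCm38, plus strand), had 187, 179, 135 and 130 FPKM in knockout libraries 1 to 4. In wild types 1 to 4 it had 192, 146, 119.9 and 129 FPKM. Both groups spread over the same range, and the highest single value was in wild type 1. The log2 difference was 0.11 ± 0.18 (SE; limma adjusted p = 0.744), with an interval of the fold from 0.814 to 1.43.

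**Figure D1:**
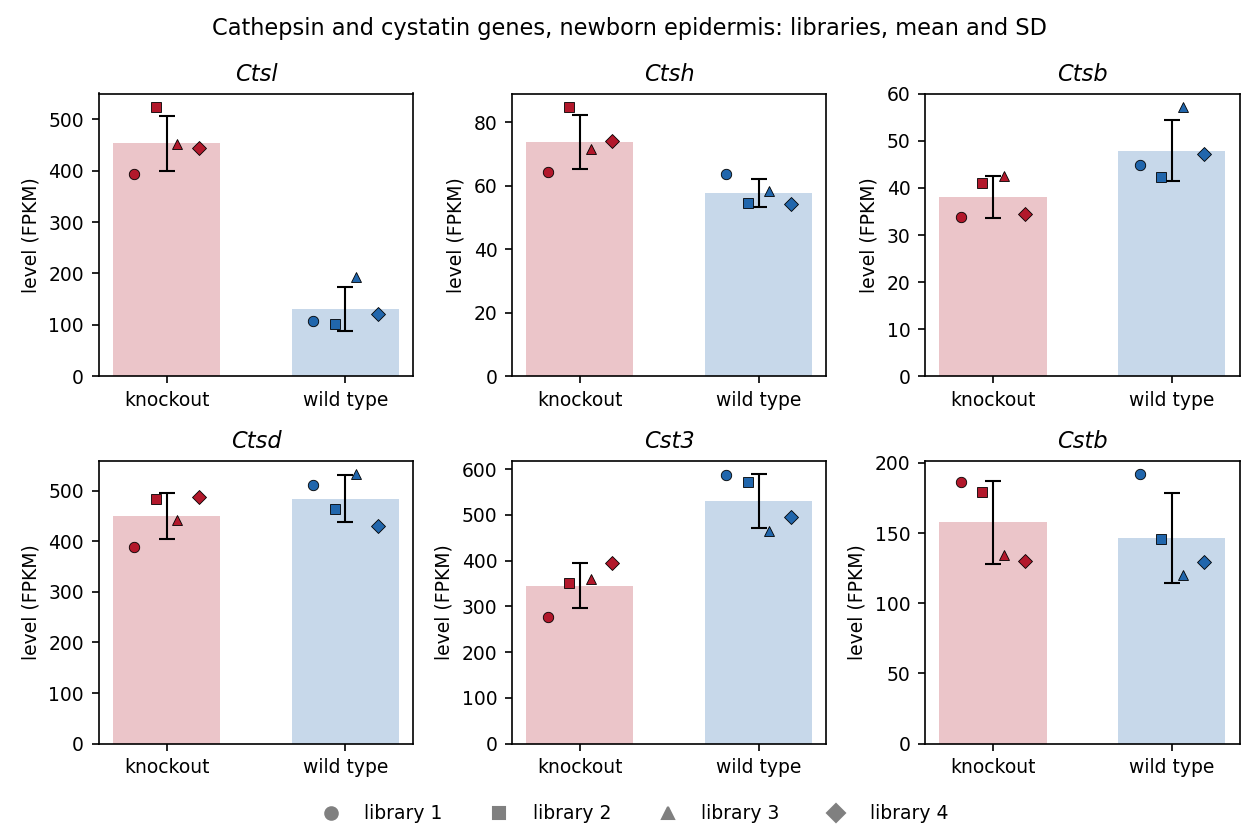
FPKM of the 6 genes in each library, knockout left and wild type right in each panel; bars are means, whiskers SD (n = 4) and symbols single libraries. The groups are apart for Ctsl, Ctsh and Cst3 and overlap for Ctsb, Ctsd and Cstb.

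In all, 1 of the 6 genes rose (Ctsl), 1 fell (Cst3) and 4 did not pass at a limma adjusted p of 0.05. Over all genes tested, 15.7% passed, 6.72% higher and 8.94% lower in the knockouts. The groups did not overlap for 3 of the 6 genes, against 21.3% of all genes tested. The median log2 difference of the 6 was 0.00 and that of all tested genes 0.01.

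The order of levels differed between the genotypes. In the knockouts Ctsl (454 FPKM) and Ctsd (451 FPKM) led with overlapping ranges, followed by Cst3 (345 FPKM, overlapping Ctsd in range but lower in each library), Cstb (158 FPKM), Ctsh (73.8 FPKM) and Ctsb (38.0 FPKM). In the wild types Cst3 (529 FPKM) and Ctsd (484 FPKM) led with overlapping ranges. Cstb (147 FPKM) and Ctsl (131 FPKM) came next and overlapped, then Ctsh (57.7 FPKM) and Ctsb (47.9 FPKM), whose ranges overlapped while Ctsh was the higher in each library. Ctsl alone took 28.4% to 31.5% of the summed FPKM of the 6 genes in the knockouts and 7.17% to 13.5% in the wild types. The share of Cst3 was 20.6% to 25.2% in the knockouts and 32.6% to 41.4% in the wild types. The sum itself overlapped, at 1345 to 1664 FPKM in the knockouts and 1278 to 1505 FPKM in the wild types.

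**Figure D2:**
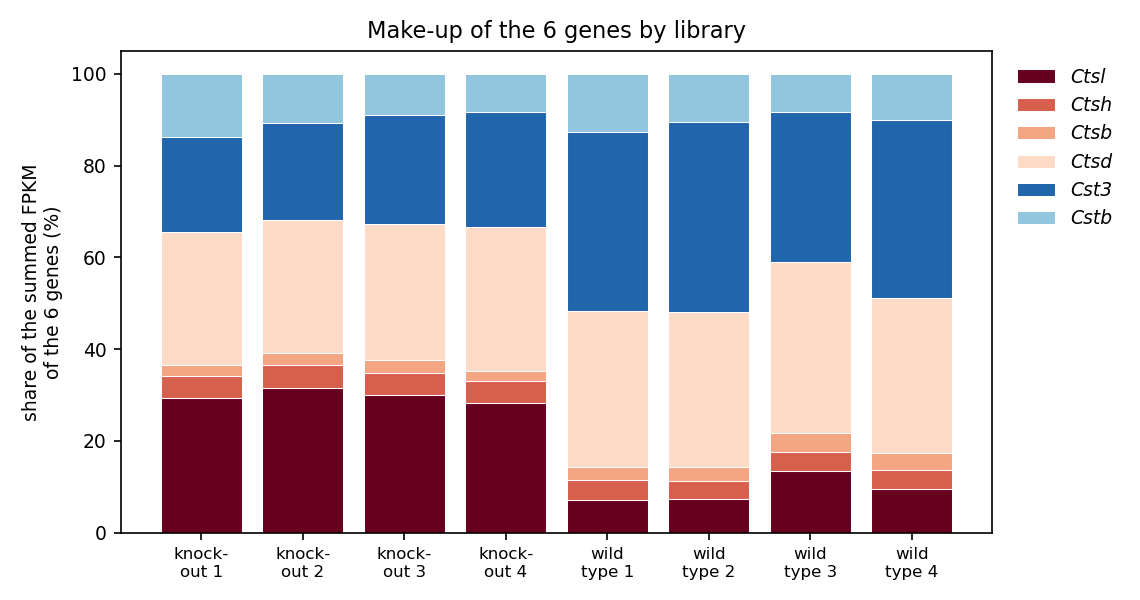
Share of each gene (%, vertical axis) in the summed FPKM of the 6 genes, 1 bar per library, the 4 knockouts left of the 4 wild types. Ctsl takes 28.4% to 31.5% in the knockouts and 7.17% to 13.5% in the wild types.

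Ratios between 2 of the genes within a library do not depend on how libraries are scaled, and they show which genes moved relative to each other. The ratio of Ctsl to Cst3 was 1.42, 1.49, 1.26 and 1.13 in knockout libraries 1 to 4, against 0.184, 0.177, 0.415 and 0.245 in wild-type libraries 1 to 4. The Ctsl level was above the Cst3 level in each knockout library and below it in each wild-type library. The ratio was 5.49 times higher in the knockouts (ratio of geometric means). Ctsl to Cstb was 2.11, 2.93, 3.36 and 3.42 in knockout libraries 1 to 4, against 0.563, 0.695, 1.61 and 0.940 in wild-type libraries 1 to 4.

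Of the 15 pairs among the 6 genes, 10 had ratios that did not overlap between the genotypes, each with a two-sided exact permutation p of 0.0286 (Benjamini-Hochberg adjusted over the 15 pairs, 0.0429). All 5 pairs with Ctsl were among them, and each of these 5 carries the same change of Ctsl. The 15 pairs share 6 genes, so they are not separate results. The p of 0.0286 is the smallest that this test allows. Its adjusted value thus depends on how many pairs reached it, those with Ctsl included. The share of such pairs among genes at large was not computed. Relative to Cst3, Ctsh was 1.96 times and Ctsd 1.43 times higher in the knockouts. The ratio of Cst3 to Cstb was 1.48, 1.96, 2.67 and 3.04 in knockout libraries 1 to 4, against 3.06, 3.93, 3.87 and 3.84 in wild-type libraries 1 to 4. Cst3 was thus lower relative to Cstb, with knockout 4 just below wild type 1. The 5 pairs that did not pass were Ctsb with Ctsd, Cst3 or Cstb, and Cstb with Ctsd or Ctsh. Ctsb to Cst3, for one, was 0.122, 0.117, 0.119 and 0.0876 in knockout libraries 1 to 4, against 0.0766, 0.0743, 0.123 and 0.0953 in wild-type libraries 1 to 4 (exact permutation p = 0.257, adjusted over the 15 pairs 0.276).

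**Figure D3:**
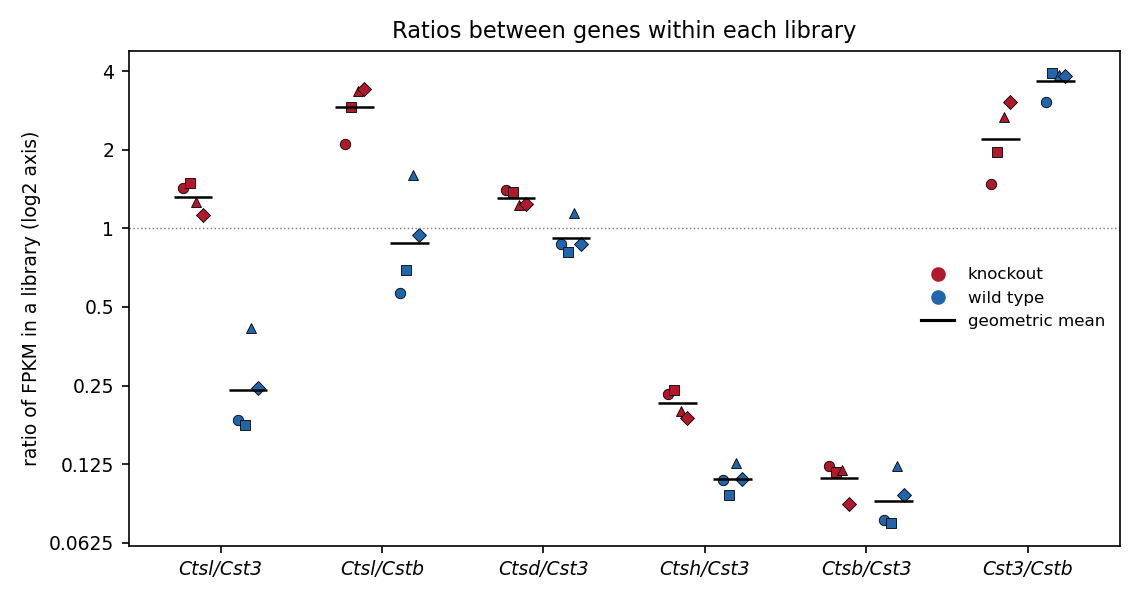
Ratio of FPKM between 2 genes within a library (log2 axis) for 6 of the 15 pairs, knockout left of wild type; symbols are libraries and lines geometric means. Ctsl/Cst3 lies between 1.13 and 1.49 in the knockouts and between 0.177 and 0.415 in the wild types, while Ctsb/Cst3 overlaps.

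The sample titles carry a code (11, 14 or 44) whose meaning the labels do not give, and each code holds both genotypes. The log2 difference of Ctsl was 1.69 with code 11, 1.44 with code 14 (1 library against 1 each) and 2.09 with code 44 (2 against 2). That of Cst3 was -0.84, -0.40 and -0.62 in the same order, and that of Ctsh 0.25, 0.53 and 0.30. Both Ctsb (-0.47, -0.47 and -0.18) and Ctsd (-0.15, -0.14 and -0.07) were lower in the knockouts with each code. Cstb took both signs, at 0.53 and 0.58 with codes 11 and 14 and at -0.34 with code 44. The gap between code 44 and the others for Cstb was -0.89 ± 0.22 (SE; limma, interaction of genotype and code, unadjusted p = 0.00430, adjusted p = 0.182). This interaction was called for 0% of genes at a limma adjusted p of 0.05 (1771 genes, 15.5%, at an unadjusted p under 0.05).

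**Figure D4:**
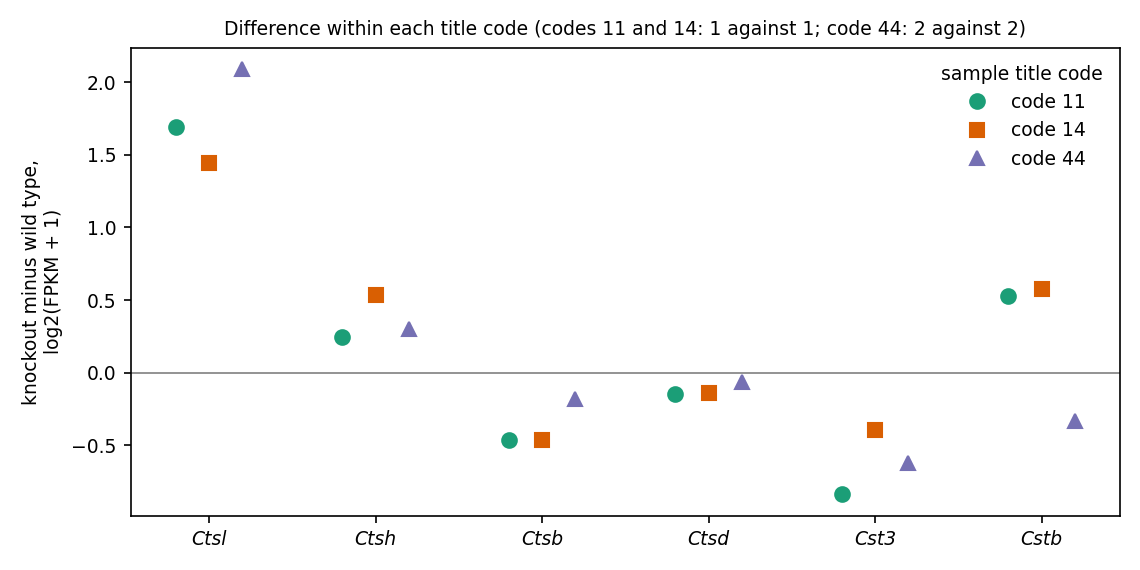
Log2 difference (knockout minus wild type, log2(FPKM + 1), vertical axis) of the 6 genes within each title code; points for codes 11 and 14 are 1 library against 1, those for code 44 the means of 2 against 2. Ctsl lies between 1.44 and 2.09 in the 3 codes, and Cstb between -0.34 and 0.58.

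Of the other cathepsins and the related legumain, 9 of 19 listed genes had rows and 8 were tested. Among these 8, 1 rose, 4 fell and 3 did not pass (median log2 difference -0.54), where 15.7% of all tested genes passed. Ctsc, the dipeptidyl peptidase that activates granule serine proteases, rose to 85.3, 85.4, 99.2 and 112 FPKM in knockout libraries 1 to 4, against 56.3, 69.4, 41.4 and 53.5 FPKM in wild-type libraries 1 to 4 (log2 0.79 ± 0.16, SE; limma adjusted p = 0.0104). Ctsa, a carboxypeptidase that protects lysosomal sialidase, had 62.6, 76.6, 75.5 and 85.4 FPKM in knockout libraries 1 to 4, against 127, 123, 133 and 106 FPKM in wild-type libraries 1 to 4 (-0.70 ± 0.12, SE; limma adjusted p = 0.00505). Both of these abundant genes were apart between genotypes. Ctsf, another papain-like protease, fell to 2.50 ± 0.326 FPKM in the knockouts, against 5.27 ± 0.662 FPKM in the wild types (SD, n = 4 each; log2 -0.84, limma adjusted p = 0.00371).

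Ctss and Ctsw, cathepsins of antigen-presenting cells and of cytotoxic lymphocytes, fell as well. Ctss had 0.411, 0.808, 0.615 and 0.826 FPKM in knockout libraries 1 to 4, against 12.96, 13.0, 21.7 and 13.1 FPKM in wild-type libraries 1 to 4 (log2 -3.26, limma adjusted p = 1.29e-05). Ctsw had 0.115 to 0.702 FPKM in the knockouts and 1.11 to 2.30 FPKM in the wild types (log2 -0.90, limma adjusted p = 0.0155). The test took genes at 1 FPKM or more in at least 4 libraries, and Ctss and Ctsw reached 1 FPKM in the wild types only. Both thus entered it through that group, and the count of genes that fell is in part set by the filter. With 1 FPKM required in all 8 libraries, 1 of the other cathepsins was called higher and 2 lower. Ctsz stood at 6.27 ± 3.54 FPKM in the knockouts and 7.33 ± 2.06 FPKM in the wild types, and Lgmn, the asparaginyl endopeptidase, at 13.1 ± 2.40 FPKM in the knockouts and 13.2 ± 2.09 FPKM in the wild types (SD, n = 4 each). Neither these nor Ctso (log2 -0.38) passed.

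Markers of immune cells moved with these values. Of 18 listed genes of Langerhans cells and myeloid cells 17 had rows. Of 14 tested, 12 fell and none rose, against 8.94% of all tested genes called lower. Among the 12, Csf1r, Lyz2, Emr1, Ptprc and Mpeg1 reached 1 FPKM in the wild types only. They entered the test through that group, so this count is in part set by the filter. The FPKM of the 17 summed to 11.2 to 19.7 in the knockouts and 81.3 to 131 in the wild types, with wild type 3 the highest. Cd207, the marker that defines Langerhans cells, is not analysed here. The 5 T cell markers with rows summed to 1.37 to 4.62 FPKM in the knockouts and 7.96 to 9.72 FPKM in the wild types. Only 2 of them were tested. Cd3g fell (log2 -1.28, limma adjusted p = 0.00196), and Thy1 overlapped and did not pass (log2 -0.65, limma adjusted p = 0.283). Cd3g too reached 1 FPKM in the wild types only. Myeloid cells are known to express Cst3, Ctsb, Ctsd, Ctsh and Ctsl too, and the part of these cells in the differences of the 6 genes was not tested.

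Of the other cystatin family genes, 13 of 24 had rows and 10 were tested. Among these 10, 2 rose, 2 fell and 6 did not pass (median log2 difference 0.33), where 15.7% of all tested genes passed. Fetub, known as an inhibitor of the egg protease ovastacin, rose to 7.19, 16.9, 33.0 and 26.4 FPKM in knockout libraries 1 to 4, against 1.09, 0.619, 1.52 and 0.169 FPKM in wild-type libraries 1 to 4 (log2 3.44 ± 0.42, SE; limma adjusted p = 6.22e-04). It was above its wild-type range in each knockout, lowest in knockout 1. BC117090, a gene of the stefin A cluster, rose to 36.7 ± 3.86 FPKM in the knockouts, against 14.7 ± 5.57 FPKM in the wild types (SD, n = 4 each; log2 1.33, limma adjusted p = 0.00399). Stfa2 fell (289 ± 51.4 FPKM in the knockouts, 672 ± 174 FPKM in the wild types, log2 -1.19, limma adjusted p = 0.00625), and so did Csta (144 ± 23.4 FPKM in the knockouts, 211 ± 30.04 FPKM in the wild types, log2 -0.55, limma adjusted p = 0.0376).

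Stefin A genes, cytosolic inhibitors related to Cstb, were the most abundant of the family. Stfa3 stood at 16362 ± 5553 FPKM in the knockouts and 9182 ± 3561 FPKM in the wild types, BC100530 at 3549 ± 625 FPKM in the knockouts and 4593 ± 1600.1 FPKM in the wild types, and Stfa1 at 739 ± 106 FPKM in the knockouts and 1034 ± 303 FPKM in the wild types (SD, n = 4 each). None of these 3 passed, nor did 2010005H15Rik (log2 1.62) or Gm5416 (log2 1.79). The copies are near-identical, so reads could have been shared and each single value is uncertain. The list's split differed between separate fits by title code (limma adjusted p under 0.05). With codes 11 and 14 alone, 5 of the list were called higher and 0 lower, against 695 higher and 1039 lower of 11713 genes tested. These 5 include Stfa2l1, which the main fit did not test. It had 3.95 and 3.28 FPKM in knockouts 1 and 2, against 0.870 and 0.797 FPKM in wild types 3 and 4. Stfa2l1 thus entered that fit only through the knockouts, and the split is in part set by the filter. With code 44 alone, 1 of the list was called higher and 4 lower, against 652 higher and 575 lower of 11200 genes tested. At a limma adjusted p of 0.05 the interaction of genotype and code was called for 0 of 11395 genes. At an unadjusted limma p under 0.05 it was 1771 genes (15.5%). Each code holds only 1 or 2 libraries of each genotype, so this fit cannot decide on a dependence on the code. Gm5416 was called in both directions, with a log2 difference of 4.76 with codes 11 and 14 and of -1.19 with code 44. With the title code as a block, 4 were called higher and 2 lower, Stfa3 (limma adjusted p = 0.0302) and 2010005H15Rik (limma adjusted p = 0.0204) being added. Cst6, the epidermal cystatin M/E whose loss in mice damages the barrier, had 33.0, 39.4, 37.7 and 45.96 FPKM in knockout libraries 1 to 4, against 47.4, 43.8, 47.2 and 40.1 FPKM in wild-type libraries 1 to 4 (log2 -0.20 ± 0.12, SE; limma adjusted p = 0.344).

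Other inhibitors of cathepsins included 7 of 8 listed genes with rows and 6 tested. Among these 6, 1 rose and 3 fell (median log2 difference -1.29), where 15.7% of all tested genes passed. Serpinb3a, whose human relatives block papain-like cysteine proteases, had 14.7, 24.3, 24.7 and 26.9 FPKM in knockout libraries 1 to 4, against 338, 315, 223 and 208 FPKM in wild-type libraries 1 to 4 (log2 -3.52, limma adjusted p = 1.44e-05). Its neighbours Serpinb3c (log2 -2.83) and Serpinb3d (log2 -2.16) fell and Serpinb3b (log2 -0.42) did not pass. For Serpinb3d, missing values in knockouts 3 and 4 were taken as 0. These too are close copies and uncertain as single genes. Serpinb13, known in humans to inhibit cathepsin L, rose to 1.09 to 3.01 FPKM in the knockouts, against 0.461 to 0.873 FPKM in the wild types (log2 0.99, limma adjusted p = 0.0177). Serpinb13 reached 1 FPKM in the knockouts only and Serpinb3d in the wild types only. Each thus entered the test through the group where it is high, and the counts are in part set by the filter. With 1 FPKM required in all 8 libraries, 0 of the list were called higher and 2 lower. Serpinb6a stood at 32.0 ± 11.7 FPKM in the knockouts and 16.6 ± 6.83 FPKM in the wild types (SD, n = 4 each) and did not pass. With the title code as a block all 6 were called, 2 higher and 4 lower, with a limma adjusted p of 0.00148 for Serpinb6a and 0.0220 for Serpinb3b. Tgm1 (log2 0.01) and Tgm3 (log2 0.10), transglutaminases that cathepsins are known to process, did not pass either (limma, 0 also at an unadjusted p under 0.05).

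**Figure D5:**
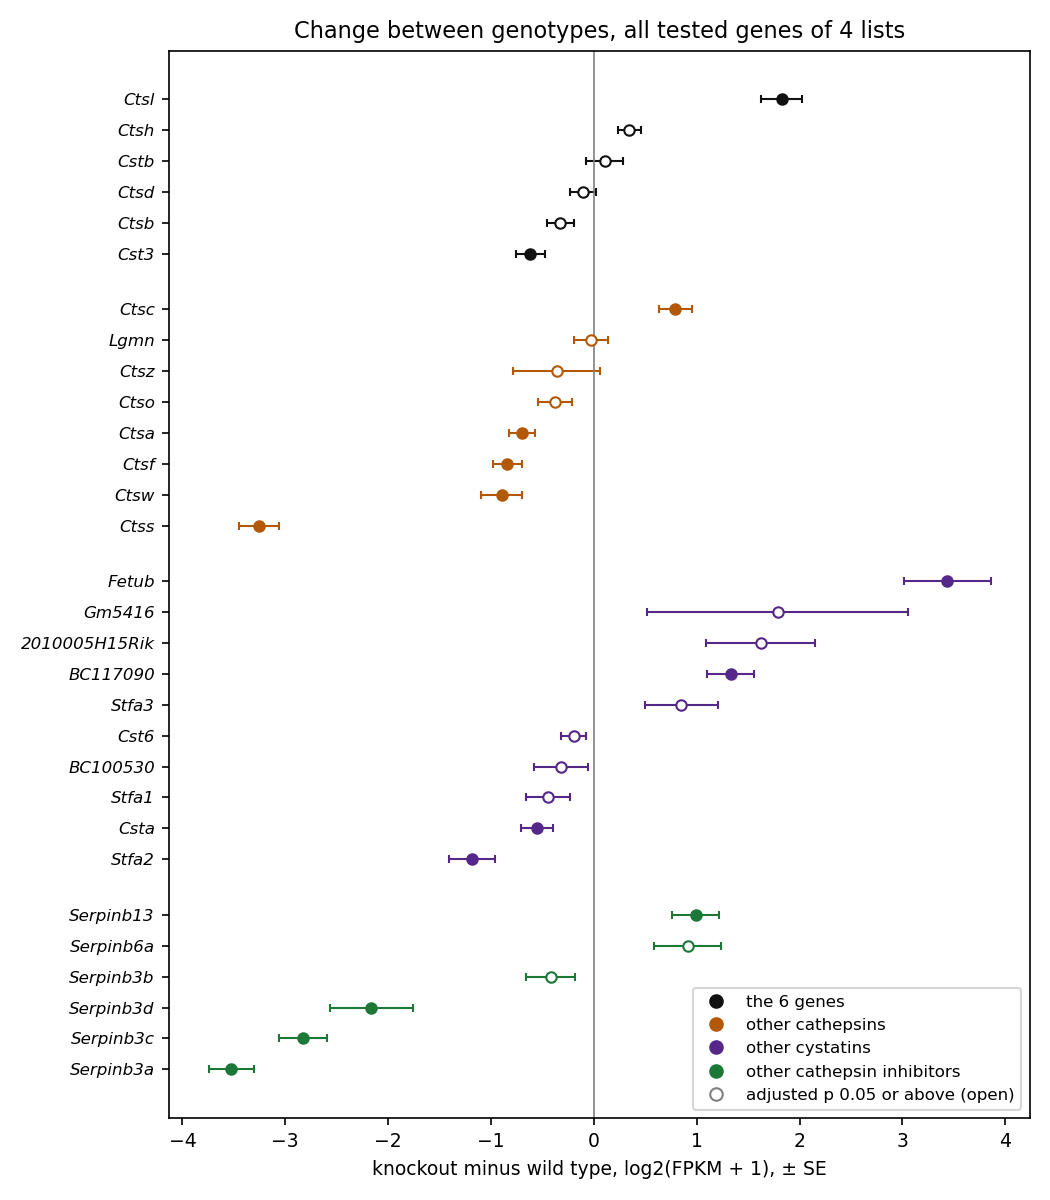
Log2 difference (knockout minus wild type, log2(FPKM + 1), horizontal axis) with SE for the tested genes of 4 lists, coloured by list; filled points passed a limma adjusted p of 0.05. Of the 6 genes Ctsl (1.83) and Cst3 (-0.62) are filled.

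Of 21 tested genes that deliver enzymes to the lysosome or regulate lysosomal genes, 2 rose, 3 fell and 16 did not pass (median log2 difference 0.10). Of all genes tested, 6.72% passed higher and 8.94% lower. The number of delivery genes called ran from 0 to 9 over the alternatives given at the end. Nagpa (log2 -1.01, limma adjusted p = 0.00433) and Gnptg (log2 -0.71, limma adjusted p = 0.0117), both of the synthesis of the mannose 6-phosphate tag, fell, as did the sorting receptor Sort1 (log2 -0.76, limma adjusted p = 0.0274). The cholesterol exporter Npc1 (log2 0.75, limma adjusted p = 0.00528) and Tfe3, a regulator of lysosomal genes (log2 0.43, limma adjusted p = 0.0463), rose.

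Of 37 other tested acid hydrolases, 2 rose, 9 fell and 26 did not pass (median log2 difference -0.21). The shares over all tested genes were 6.72% higher and 8.94% lower. Among those with the smallest p were Smpd1, acid sphingomyelinase (log2 -1.21), Prcp (log2 -1.04) and Sgsh (log2 1.36). Sgsh, which degrades heparan sulfate, rose to 9.29 ± 2.97 FPKM in the knockouts, against 2.94 ± 0.830 FPKM in the wild types (SD, n = 4 each; limma adjusted p = 0.00358). Nagpa is counted in both lists.

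Genes with the pattern most like each of the 6 were sought among 5556 tested genes with a mean of at least 10 FPKM, by the root mean square difference of log2(FPKM + 1) over the 8 libraries after centring each gene. Nearest to Ctsl were Dnaja1, a co-chaperone (difference 0.13), Epb4.1l4b (0.19) and Sh3d21 (0.21). Near to Cst3 were Vti1b, a vesicle fusion protein, and Rcn1 (both 0.05). Spty2d1, Ggnbp2 and Pkp3 came nearest to Ctsh, Clcc1, Sdf4 and Eml4 to Ctsb, Golga7, Slc7a6os and Eif4g1 to Ctsd, and Pim1, Prrg4 and Lsm4 to Cstb, at 0.06 to 0.12. None of these genes is a cathepsin or a cystatin.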

How the data were processed

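Total RNA was depleted of ribosomal RNA and made into stranded paired-end libraries, per the labels' protocols. The authors deposited 1 FPKM value per gene symbol and library, and mm10 is the genome build named in the submitters' processing notes. No source used here names an aligner, a quantification program or an annotation. Every gene with a row has a value in knockout 1, and whether genes without one there were left out is not known. A missing value (2029 genes) was taken as 0, and 4 genes listed at 0 beside 100 FPKM or more were left out. FPKM carries no counts; steps among low values put relative depth at 1 to 1.47 times that of knockout 1, and absolute depth is unknown. Genotypes were compared with limma 3.58.1 (R 4.3.3) on log2(FPKM + 1) with a mean-variance trend, over 11395 genes at 1 FPKM or more in at least 4 libraries (3 of 7 or 2 of 4 in smaller fits), with Benjamini-Hochberg adjustment over all of them, and the fit was tested on simulated data. Fold changes on this scale understate changes of low genes. Ratios within a library were compared by exact permutation over 70 assignments. Named genes are the 6, all tested genes of the small related lists, the 5 smallest p of the 2 lysosomal lists and the 3 nearest genes by pattern, some of which are not reported here; 4 listed genes were found under older symbols through the RefSeq table. Libraries are numbered in accession order. The members and lists were chosen with earlier results of these data known. Alternatives are given at the end. Coordinates are from GENCODE M21 (GRCm38, the same build as mm10) and start regions from RefSeq.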

Additional observations from a re-analysis of the deposited data

Results flagged for a closer look

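Of 64 groups of 4 libraries (32 genes, 2 genotypes), 1 held a library far from the others. Ctss stood at 21.7 FPKM in wild type 3, against 12.96 to 13.1 FPKM in the other wild types. Chance flags about 1 in 20 such groups. In the same library the myeloid markers summed to 131 FPKM, against 81.3 to 99.2 FPKM in the other wild types, and Ctsl stood at 192 FPKM. Cst3, at 464 FPKM, was the lowest of the wild types there. Xist stood at 118 FPKM, against 0.00825 to 0.0223 FPKM in the other wild types. A link between these values was not tested.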

How the results depend on the processing

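Each of the 6 log2 differences was recomputed under 22 alternatives of pseudocount, filter, scaling, variance model, covariate and libraries, 1 of them (the first digits of the column header numbers as a block) chosen after the data were seen. Ctsl stayed higher and past the threshold in all 22 (1.55 to 2.09, limma adjusted p 2.83e-05 to 0.0172). Ctsh passed with quantile normalisation (0.39) and array weights (0.40), which made 3 members called. Cst3 kept its call in 18 of the 22. It lost it with log2 Xist as a covariate (-0.46), with codes 11 and 14 alone (-0.62), without wild type 1 (-0.57) and without wild type 2 (-0.58). Each of these left 1 member called. Cstb was lower with code 44 alone (-0.34). Leaving out each library gave 1.72 to 2.03 for Ctsl, 0.28 to 0.41 for Ctsh, -0.38 to -0.24 for Ctsb, -0.16 to -0.04 for Ctsd, -0.69 to -0.52 for Cst3 and 0.02 to 0.24 for Cstb, with 1 to 2 members, 5 other cathepsins, 3 to 4 cystatins, 3 to 5 other inhibitors, 3 to 6 delivery genes, 9 to 11 hydrolases and 1123 to 2326 genes of all called. Delivery genes called were 3 without knockout 1 or 2 or wild type 1 or 2, and 1123 genes of all were called without wild type 1. Of other cathepsins, 3 were called with 1 FPKM required in all libraries, as with codes 11 and 14 alone, and of other inhibitors 2 with that filter. Delivery genes called were 9 with array weights, 2 with Xist and 0 with code 44 alone (limma; 9 at an unadjusted p under 0.05). Genes called in all were 3669 with array weights (1942 higher, 1727 lower) and 1141 with Xist. The same 10 pair ratios passed in limma. With 7 libraries the exact test cannot go below 0.0571, so pairs were not recounted on fewer libraries. No cause of these shifts was tested. The titles share only 1 replicate number between genotypes, so the title code was used as a block in its place. That block changed no call of the 6, but called 6 other cystatins (4 higher), 6 other inhibitors (2 higher) and 2261 genes of all. Counting error of single values cannot be given without depth.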
